A study of Homo sapiens with 18 samples.

Results

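Claudins were followed in RNA sequencing of SW48 cells, a human colon adenocarcinoma line. The set holds 10 claudin genes taken by symbol (CLDN1, CLDN2, CLDN3, CLDN4, CLDN6, CLDN7, CLDN12, CLDN15, CLDN18 and CLDN23), out of 23571 named genes in the deposited table, and all 10 were found there. 9 of them passed the filter on low values, which asked for 1 FPKM in 3 or more of 18 libraries, and were among 12809 genes tested. CLDN18 did not pass. FPKM counts sequenced fragments scaled for library size and for transcript length, so that levels can be set side by side between genes.

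The study lowered CHD4, the ATPase that moves nucleosomes within the repressive NuRD complex, with small interfering RNA (siCHD4), and set it against a control siRNA in 3 backgrounds: alone, after an siRNA against the maintenance DNA methyltransferase DNMT1 (siDNMT1), and with decitabine, a nucleoside drug that traps DNA methyltransferases. This gave 6 groups of 3 libraries: control siRNA, siCHD4, control siRNA + siDNMT1, siCHD4 + siDNMT1, control siRNA + decitabine and siCHD4 + decitabine. Schedules differed between backgrounds. Cells with the test siRNA alone received it on days 1, 3 and 6 and gave RNA on day 8; cells with siDNMT1 received that siRNA on days 1, 3 and 5, the test siRNA on days 7 and 8 and gave RNA on day 11; cells with decitabine received 50 nM on days 1, 2 and 3, the test siRNA on days 1 and 2 and gave RNA on day 5. Comparisons of siDNMT1 or decitabine with control siRNA alone therefore differ in schedule as well as in agent, and the 2 cannot be told apart. Nothing in the labels ties the 3 libraries of a group to separate cultures; the spread behind each p-value may thus be technical. All groups are bulk samples of 1 cell line, in which fewer cells of a type and less RNA per cell cannot be told apart.

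Claudins are membrane proteins with a pair of extracellular loops that join neighbouring epithelial cells at the tight junction, where they meet claudins of the opposite cell and bind scaffold proteins of the ZO family inside the cell. Some seal the space between cells (CLDN1, CLDN3, CLDN4 and CLDN7 are commonly counted here) and others form channels for small ions or water (CLDN2 and CLDN15). In colon epithelium CLDN3, CLDN4, CLDN7 and CLDN12 are among the commonly expressed members, CLDN2 and CLDN15 serve paracellular sodium transport in the intestine, CLDN18 is best known from stomach and lung, and CLDN6 from embryonic epithelia and stem cells.

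Of the 14 colon epithelium markers listed, 11 reached 1 FPKM in at least 1 library; CDX1, GPA33 and LGALS4 stayed under it in every library. CHD4 itself was at 59.1, 61.2 and 68.2 FPKM in control siRNA and at 39.0, 31.8 and 23.2 in siCHD4 (log2 change -1.01, limma adjusted p = 0.000201), and the change with siDNMT1 was -1.24 (limma adjusted p = 7.64e-06). With decitabine CHD4 was at 66.8, 80.2 and 81.5 FPKM in the control and at 55.6, 56.5 and 52.6 with siCHD4, which did not pass the test (-0.46, limma adjusted p = 0.0752; -0.55 and 0.0449 without the library described next). 1 library stood apart. In replicate 0 of control siRNA + decitabine the smallest step of the values was 4.12 times that of control siRNA replicate 0, against log2 steps of -0.74 to 0.17 in the other libraries, so its values rest on fewer fragments. It was the highest of its 3 libraries for 8 of the 10 claudins and for 46.4% of all tested genes, and comparisons that use it are given with and without it where that changed a call. Changes below are differences of mean log2(FPKM + 1), which understates the change of low genes, from a limma fit on all 6 groups with p adjusted over all tested genes by Benjamini-Hochberg, and a gene was called at an adjusted p under 0.05.

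CLDN6 was near 0 in 5 of the groups and rose where both CHD4 and DNMT1 had been targeted. It lies on chromosome 16 at 3064713 to 3070072 on the minus strand (GRCh37). Its promoter, from 250 bases before to 50 after the start in RefSeq (GRCh38.p14, chr16:3018134-3018433, minus strand), is shown because the agents of the study act on DNA methylation and methylation falls on cytosines followed by guanine; those CG pairs are in capitals.
CLDN6: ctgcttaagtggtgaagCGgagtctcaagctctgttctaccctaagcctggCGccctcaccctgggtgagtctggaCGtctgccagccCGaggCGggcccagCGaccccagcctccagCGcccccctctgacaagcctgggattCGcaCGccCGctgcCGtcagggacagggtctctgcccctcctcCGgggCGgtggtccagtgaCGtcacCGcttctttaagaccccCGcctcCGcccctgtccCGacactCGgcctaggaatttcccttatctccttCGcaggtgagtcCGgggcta
It holds 21 CG pairs, more than 60.5% of the 35116 promoters in the table, whose median is 14.

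CLDN6 read 0.0929, 0.298 and 0.185 FPKM in control siRNA. In siCHD4 it read 0.356, 0.561 and 0.189 FPKM. With siDNMT1 and the control siRNA the values were 0.266, 0.390 and 0.375 FPKM. In siCHD4 + siDNMT1 they were 7.57, 6.57 and 6.95 FPKM. The 3 libraries with both siRNAs were thus far above all 15 others, of which the highest was the shallow decitabine library. With decitabine CLDN6 read 1.15, 0.312 and 0.247 FPKM in the control. With siCHD4 and decitabine it read 0.730, 0.501 and 0.400 FPKM, all above 0.312 and 0.247 and below the 1.15 of the shallow library.

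The change of CLDN6 with siCHD4 in the siDNMT1 background was 2.58 on the log2 scale (SE 0.17, limma adjusted p = 4.80e-08). Without siDNMT1 it was 0.19 (limma adjusted p = 0.461), and with decitabine 0.02 (limma adjusted p = 0.969; 0.32 and 0.0199 with library weights). The differences between these changes were tested directly and were 2.39 against siCHD4 alone (limma adjusted p = 2.52e-05) and 2.56 against siCHD4 with decitabine (limma adjusted p = 9.16e-05). Without the shallow library the last was 2.31 and kept its call. CLDN6 had passed the filter through 4 libraries at 1 FPKM or more, 3 of them siCHD4 + siDNMT1; with no filter the change with siDNMT1 was 2.58 (limma adjusted p = 7.92e-08).

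CLDN6 values are whole multiples of a step in each library, and if the smallest step is 1 fragment, the fragments behind them can be counted. They came to 1, 3 and 2 in control siRNA, 3, 4 and 4 in control siRNA + siDNMT1 and 89, 71 and 90 in siCHD4 + siDNMT1. In siCHD4 the fragments were 6, 9 and 2. Control siRNA + decitabine had 3, 3 and 3, and siCHD4 + decitabine 13, 9 and 6, before correction for depth. Corrected for depth, siCHD4 + siDNMT1 had 20.6 times as many fragments as control siRNA + siDNMT1 (95% exact interval 11.3 to 41.9, counting error only). Against control siRNA alone the ratio was 37.1 (16.8 to 102). The siCHD4 ratio could not be told from 1 alone, at 2.06 (0.775 to 6.38), or with decitabine, at 1.49 (0.684 to 3.59). For siCHD4 + decitabine against control siRNA alone no such ratio was computed. There the ratio of mean FPKM was 2.83 and the 3 libraries were above the controls. That change did not pass the test (log2 change 0.37, limma adjusted p = 0.107). The exact permutation test of 3 against 3 libraries cannot give a p under 0.1, so the calls rest on the fit over all genes.

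In the GENCODE gene models CLDN6 overlaps TNFRSF12A, the receptor of the cytokine TWEAK, on the opposite strand, from 3068446 to 3070072 (GRCh37). Whether strand was used in counting, and which annotation, is not given in the sources used here. TNFRSF12A was at 157 ± 12.4 FPKM (SD, n = 3) in control siRNA + siDNMT1 and at 225 ± 23.3 (SD, n = 3) in siCHD4 + siDNMT1, and it was called in no comparison. CLDN9, a close relative of CLDN6, lies 206 bases from it and reached at most 0.24 FPKM in any library. Over the 18 libraries the tested genes whose log2 values followed CLDN6 most closely were CALN1 (Pearson r = 0.983), a calneuron, CREB5 (r = 0.978), a transcription factor, and ACSBG1 (r = 0.978), an acyl-CoA synthetase. These are descriptions over libraries that share 6 groups, chosen for likeness.

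**Figure D1:**
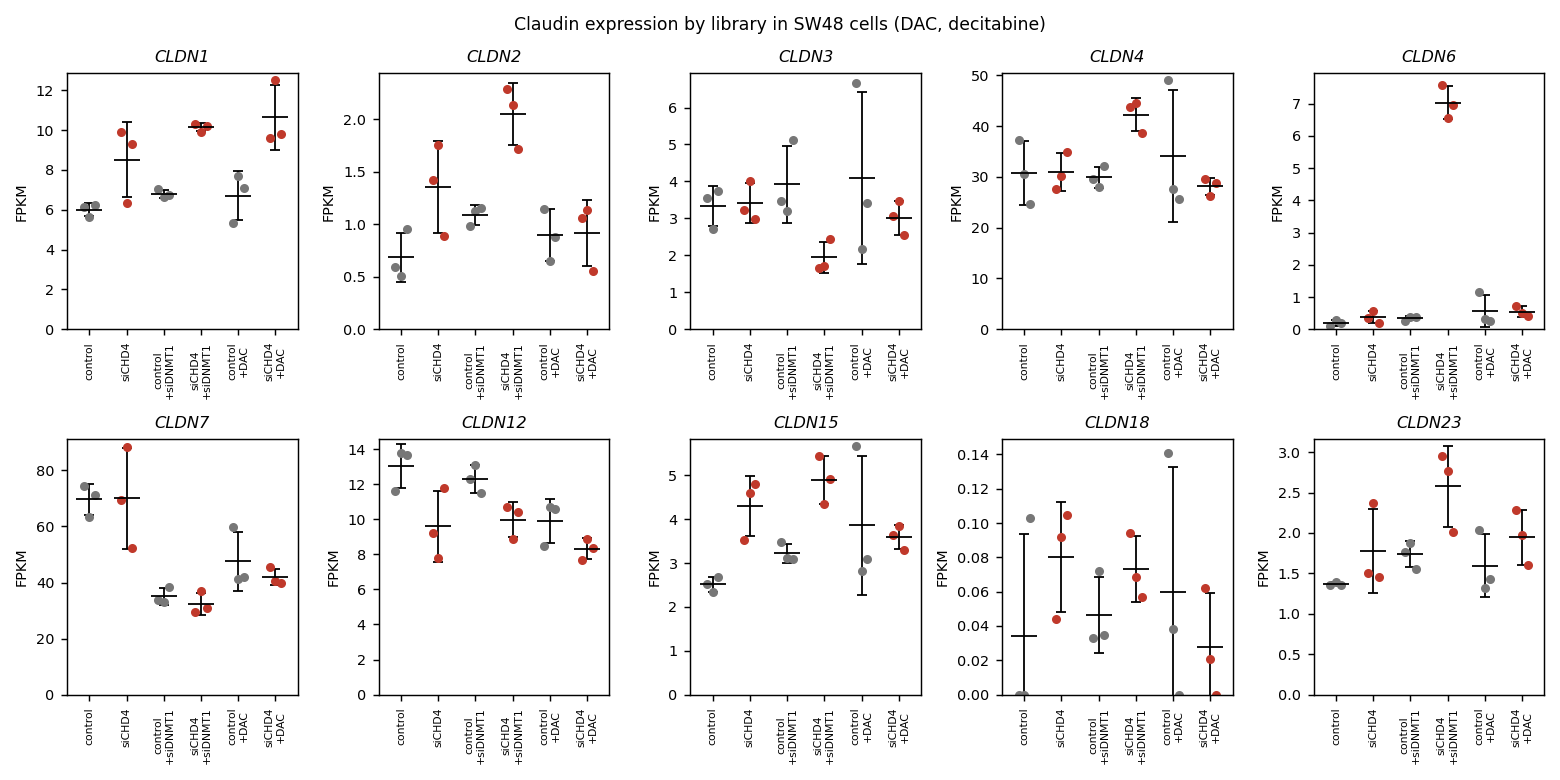
FPKM (vertical axis, linear, own scale per panel) of the 10 claudins in each of 18 libraries, by group along the horizontal axis; points are libraries, bars the mean and SD of 3. CLDN6 stands at 6.57 to 7.57 FPKM in siCHD4 + siDNMT1 and at 1.15 or less elsewhere, and CLDN7 is lower in the groups with siDNMT1 than in those without an inhibitor of methylation.

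CLDN7 was the most abundant claudin in control cells and fell where DNMT1 had been targeted or decitabine given, with or without siCHD4. It lies on chromosome 17 at 7163222 to 7167302 on the minus strand (GRCh37). RefSeq gives it 2 starts (GRCh38.p14, minus strand), chr17:7262429-7262728 and chr17:7263164-7263463, shown for the contrast in CG pairs, which are in capitals.
CLDN7, first: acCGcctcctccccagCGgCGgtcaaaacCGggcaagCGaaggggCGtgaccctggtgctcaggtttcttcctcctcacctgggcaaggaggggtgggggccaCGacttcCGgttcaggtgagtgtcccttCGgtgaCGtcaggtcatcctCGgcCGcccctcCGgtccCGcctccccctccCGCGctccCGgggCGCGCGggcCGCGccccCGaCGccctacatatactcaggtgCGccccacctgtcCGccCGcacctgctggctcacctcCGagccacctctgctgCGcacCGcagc
CLDN7, second: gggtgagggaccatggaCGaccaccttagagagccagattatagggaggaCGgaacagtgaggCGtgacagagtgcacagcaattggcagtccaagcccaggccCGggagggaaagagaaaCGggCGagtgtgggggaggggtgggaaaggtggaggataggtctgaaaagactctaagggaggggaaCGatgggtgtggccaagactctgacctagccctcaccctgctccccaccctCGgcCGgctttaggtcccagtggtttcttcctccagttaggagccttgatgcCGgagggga
The first holds 30 CG pairs, more than 77.6% of promoters in the table, and the second 10, more than 43.6%. The first also holds 5 copies of CAGGTG or its reverse complement CACCTG, the letters that repressors of the SNAI and ZEB families can bind. 20.6% of promoters in the table hold at least 1 such copy and 0.094% hold 5 or more. The cut of 5 equals the count in this promoter, and several other motifs were searched, so that share is no test of rarity. A match describes these letters and not a bound site.

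CLDN7 read 74.3, 63.5 and 71.1 FPKM in control siRNA. In control siRNA + siDNMT1 it read 33.6, 33.1 and 38.4 FPKM, all below the controls (log2 change -0.97, SE 0.17, limma adjusted p = 0.00117). In control siRNA + decitabine it read 59.7, 41.1 and 42.0 FPKM, again all below the controls, with the shallow library the nearest to them (log2 change -0.56, limma adjusted p = 0.0315). Without that library the change with decitabine was -0.73 (limma adjusted p = 0.00722). The call was lost without any 1 of the 3 control siRNA libraries or of the other 2 decitabine libraries (adjusted p 0.0522 to 0.101).

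siCHD4 did not move CLDN7 past the test in any background. It read 69.3, 88.4 and 52.3 FPKM in siCHD4, a range that holds all 3 controls. In siCHD4 + siDNMT1 the values were 29.6, 36.9 and 30.8 FPKM and in siCHD4 + decitabine 45.4, 40.5 and 40.0 FPKM. The 3 changes with siCHD4 were -0.02 alone (limma adjusted p = 0.948), -0.11 with siDNMT1 (limma adjusted p = 0.601) and -0.16 with decitabine (limma adjusted p = 0.611). Against control siRNA alone, CLDN7 in siCHD4 + siDNMT1 was at 0.466 times the mean of the controls (log2 change -1.08, limma adjusted p = 6.33e-05), and in siCHD4 + decitabine the log2 change was -0.72 (limma adjusted p = 0.00415).

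In the GENCODE gene models CLDN7 overlaps ELP5, a subunit of the Elongator complex, on the opposite strand, from 7163222 to 7163259 (GRCh37). ELP5 was called in no comparison. The genes most like CLDN7 over the 18 libraries were SLC43A1, an amino acid transporter (Pearson r = 0.978), TAGLN2, a transgelin (r = 0.974), and SMAGP, an adhesion glycoprotein (r = 0.956).

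CLDN4, the second claudin by level, was at similar values in most groups. It lies on chromosome 7 at 73213872 to 73247020 on the plus strand (GRCh37), and its RefSeq promoter holds 5 CG pairs, more than 29.6% of promoters. It read 37.3, 30.5 and 24.7 FPKM in control siRNA and 27.6, 30.2 and 34.9 in siCHD4, which overlap. After siDNMT1 it read 29.6, 28.0 and 32.1 FPKM, and in siCHD4 + siDNMT1 43.7, 44.5 and 38.6, all above. That change was 0.48 on the log2 scale (limma adjusted p = 0.0464), and it missed the threshold when any 1 of the 6 libraries was left out (adjusted p 0.0596 to 0.123). With decitabine CLDN4 read 49.0, 27.6 and 25.7 FPKM in the control, the first being the shallow library, and 29.5, 26.3 and 28.7 with siCHD4, with no call (log2 change -0.21, limma adjusted p = 0.554).

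CLDN3 lies 29.3 kb from CLDN4 on chromosome 7, on the opposite strand, in the GENCODE gene models (GRCh37). Their RefSeq promoters lie further apart, at 73770221 to 73770520 for CLDN3 and 73830746 to 73831045 for CLDN4 (GRCh38.p14). The CLDN3 promoter holds 24 CG pairs. CLDN3 moved the other way with both siRNAs. It read 3.54, 2.71 and 3.74 FPKM in control siRNA and 3.24, 4.01 and 2.99 in siCHD4. After siDNMT1 and control siRNA it read 3.47, 3.19 and 5.11 FPKM, and in siCHD4 + siDNMT1 1.67, 1.72 and 2.44, all below (log2 change -0.73, limma adjusted p = 0.0220). The call was lost without replicate 2 of the control (-0.57, limma adjusted p = 0.0989), replicate 0 of siCHD4 + siDNMT1 (-0.67, limma adjusted p = 0.0737) or its replicate 1 (-0.68, limma adjusted p = 0.0624). With decitabine CLDN3 read 6.67, 2.16 and 3.42 FPKM in the control and 3.06, 3.46 and 2.54 with siCHD4, which overlap.

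The make-up of the summed claudin FPKM followed from these values. The 10 genes summed to 128 ± 8.78 FPKM (SD, n = 3) in control siRNA, 130 ± 14.1 in siCHD4, 94.4 ± 5.05 in control siRNA + siDNMT1, 113 ± 4.89 in siCHD4 + siDNMT1, 109 ± 25.9 in control siRNA + decitabine and 99.2 ± 3.88 in siCHD4 + decitabine. CLDN7 made up 54.6% of the sum in control siRNA, 37.1% with siDNMT1 and 28.6% with both siRNAs. CLDN4 made up 24.0%, 31.7% and 37.2% in the same groups. CLDN6 made up 0.154%, 0.364% and 6.21%.

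The log2 ratio of CLDN4 to CLDN7, a quantity within each library that scaling between libraries does not touch, was -1.0, -1.06 and -1.53 in control siRNA. It was -0.18, -0.25 and -0.26 in control siRNA + siDNMT1, and 0.56, 0.27 and 0.32 in siCHD4 + siDNMT1. CLDN4 therefore exceeded CLDN7 in FPKM in the 3 libraries with both siRNAs and in none of the other 15. The step from control siRNA + siDNMT1 to siCHD4 + siDNMT1 was 0.61, and that from control siRNA to control siRNA + siDNMT1 was 0.97, both without overlap and both at an exact two-sided permutation p of 0.1, the smallest that 3 against 3 allows. With decitabine the ratio was -0.28, -0.57 and -0.71 in the control and -0.62, -0.62 and -0.48 with siCHD4, a difference of -0.05 (exact permutation p = 0.8).

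**Figure D2:**
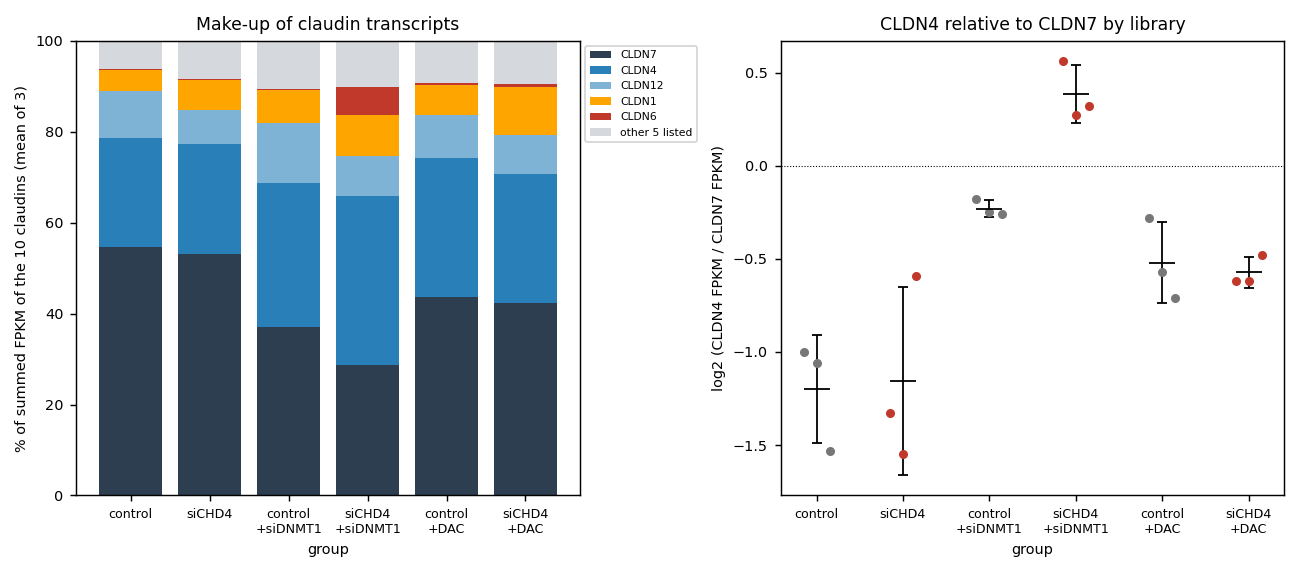
Left, share of the summed FPKM of the 10 claudins (vertical axis, percent) taken by each in each group of 3 libraries; right, log2 of CLDN4 FPKM over CLDN7 FPKM in each library (points) with the group mean and SD. The CLDN7 share falls from 54.6% in control siRNA to 28.6% in siCHD4 + siDNMT1, and the ratio is above 0 in those 3 libraries.

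CLDN1 rose with siCHD4 in each background. It lies on chromosome 3 at 190023496 to 190040235 on the minus strand (GRCh37). Its RefSeq promoter (GRCh38.p14, chr3:190322397-190322696, minus strand) is the one with the most CG pairs among the 9 listed claudins matched, and is shown for comparison with the CLDN6 promoter above, CG again in capitals.
CLDN1: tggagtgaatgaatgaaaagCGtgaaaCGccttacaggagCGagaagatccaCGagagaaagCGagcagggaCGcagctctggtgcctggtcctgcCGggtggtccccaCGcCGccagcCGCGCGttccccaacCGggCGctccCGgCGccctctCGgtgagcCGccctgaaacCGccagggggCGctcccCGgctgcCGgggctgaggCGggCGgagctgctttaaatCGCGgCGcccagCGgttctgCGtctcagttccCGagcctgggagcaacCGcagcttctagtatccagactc
It holds 31 CG pairs, more than 79.3% of promoters.

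CLDN1 read 6.15, 5.62 and 6.24 FPKM in control siRNA and 9.90, 6.36 and 9.30 in siCHD4, with replicate 1 of siCHD4 only just above the controls (log2 change 0.42, limma adjusted p = 0.0498). That call was lost in most other settings, with adjusted p up to 0.190. Its control siRNA + siDNMT1 values were 7.04, 6.63 and 6.74 FPKM, and in siCHD4 + siDNMT1 10.3, 9.91 and 10.2 (log2 change 0.52, SE 0.14, limma adjusted p = 0.00777). This change passed under every alternative run. In control siRNA + decitabine it read 5.34, 7.68 and 7.11 FPKM, and in siCHD4 + decitabine 9.60, 12.5 and 9.82, all above (log2 change 0.60, limma adjusted p = 0.0250). Without the shallow library it was 0.46 (limma adjusted p = 0.0818), and without replicate 1 of siCHD4 + decitabine 0.49 (limma adjusted p = 0.142). No difference between the 3 changes passed the test: 0.09 between siDNMT1 and alone (limma adjusted p = 0.840), 0.17 between decitabine and alone (limma adjusted p = 0.714) and -0.08 between siDNMT1 and decitabine (limma adjusted p = 0.814).

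CLDN16, a claudin of the kidney known for magnesium transport and not among the 10, starts 94 bases from CLDN1 on the other strand in the GENCODE gene model; the 2 CLDN16 starts in RefSeq lie elsewhere, with promoters at 190290111 to 190290410 and 190387913 to 190388212 of chromosome 3 (GRCh38.p14). It read 0.387, 0.452 and 0.351 FPKM in control siRNA and 2.48, 2.44 and 2.66 in control siRNA + siDNMT1 (log2 change 1.34, limma adjusted p = 9.80e-06). In siCHD4 + siDNMT1 it read 3.38, 3.61 and 3.43 FPKM. With decitabine it read 0.145, 0.395 and 0.906 FPKM, which overlaps the controls. The change of CLDN1 with siDNMT1 was 0.16 (limma adjusted p = 0.546), with its 3 libraries above the controls; the difference between the neighbours was not tested.

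The channel-forming members were lower in level. CLDN15, which lets sodium pass between cells of the small intestine, lies on chromosome 7 at 100875373 to 100882101 on the minus strand (GRCh37). It read 2.52, 2.34 and 2.69 FPKM in control siRNA and 3.52, 4.59 and 4.80 in siCHD4, all above (log2 change 0.58, limma adjusted p = 0.0229). In control siRNA + siDNMT1 it read 3.47, 3.11 and 3.09 FPKM, and in siCHD4 + siDNMT1 5.43, 4.34 and 4.91, all above (log2 change 0.48, limma adjusted p = 0.0258). Both calls were lost in some of the other settings. siCHD4 + siDNMT1 against control siRNA alone was 0.74 (limma adjusted p = 0.00134) and passed in all of them. With decitabine CLDN15 read 5.67, 2.81 and 3.09 FPKM in the control and 3.65, 3.85 and 3.30 with siCHD4, which overlap. CLDN15 was lower in the 3 control siRNA libraries than in any of the other 15.

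CLDN2, the cation and water channel of leaky epithelia, lies on chromosome X at 106143394 to 106174091 on the plus strand (GRCh37), and its 2 RefSeq promoters hold 1 and 2 CG pairs, the fewest among the listed claudins. It read 0.596, 0.511 and 0.952 FPKM in control siRNA and 1.42, 1.76 and 0.890 in siCHD4, which overlap (log2 change 0.47, limma adjusted p = 0.0498, lost in 8 other settings). The siDNMT1 background gave 0.985, 1.13 and 1.16 FPKM in the control and, in siCHD4 + siDNMT1, 2.29, 2.14 and 1.72, all above (log2 change 0.54, limma adjusted p = 0.0116). After quantile normalization this was 0.23 (limma adjusted p = 0.279). With decitabine it read 1.15, 0.653 and 0.882 FPKM in the control and 1.06, 1.14 and 0.557 with siCHD4, with no change past the test. The genes most like it over the 18 libraries were SSUH2 (Pearson r = 0.905), NAB2, a repressor of EGR factors (r = 0.880), and P4HA2, a collagen prolyl hydroxylase (r = 0.876).

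CLDN12, a claudin without the ZO-binding tail of the others, had lower means with siCHD4 and was called lower with siCHD4 alone. It lies on chromosome 7 at 90013035 to 90142716 on the plus strand (GRCh37). It read 11.6, 13.8 and 13.7 FPKM in control siRNA and 9.23, 7.77 and 11.8 in siCHD4, of which the highest overlaps the controls (log2 change -0.42, limma adjusted p = 0.0334, lost in 6 other settings). In control siRNA + siDNMT1 it read 12.3, 13.1 and 11.5 FPKM and in siCHD4 + siDNMT1 10.7, 8.86 and 10.4, all below but not past the test (-0.28, limma adjusted p = 0.0872, or 0.0423 after quantile normalization). With decitabine it read 8.46, 10.7 and 10.6 FPKM in the control and 7.68, 8.89 and 8.39 with siCHD4. The siCHD4 change within the decitabine background was -0.22 (limma adjusted p = 0.35), and decitabine against control siRNA alone was -0.37 (limma adjusted p = 0.0623). siCHD4 + decitabine against control siRNA alone was -0.59 (limma adjusted p = 0.00278), a call that every alternative kept. That comparison differs in decitabine and schedule as well as in siCHD4. In the GENCODE gene models CLDN12 overlaps GTPBP10 and CDK14 on its own strand. Under those models fragments in a shared stretch cannot be assigned to 1 gene by position alone. The annotation used in counting is not given in the sources used here.

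CLDN23, an epithelial claudin encoded on chromosome 8, read 1.36, 1.39 and 1.36 FPKM in control siRNA and 1.50, 2.37 and 1.45 in siCHD4 (log2 change 0.21, limma adjusted p = 0.332). In control siRNA + siDNMT1 it read 1.77, 1.88 and 1.56 FPKM and in siCHD4 + siDNMT1 2.95, 2.77 and 2.01, all above (log2 change 0.38, limma adjusted p = 0.0420). After quantile normalization that was 0.09 (limma adjusted p = 0.649). The call was lost in 8 of 13 other settings, among them without any 1 of the 6 libraries other than replicate 2 of siCHD4 + siDNMT1 (adjusted p 0.0593 to 0.155). With decitabine it read 2.04, 1.32 and 1.43 FPKM in the control and 2.28, 1.97 and 1.60 with siCHD4. CLDN18 reached at most 0.141 FPKM, was listed at 0 in 4 libraries, and rested on at most 4 estimated fragments in any library, so that no change was detectable at this depth.

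Set side by side, the calls on the 9 tested claudins differed in number between backgrounds, as did those on all genes. siCHD4 alone had 3 higher and 1 lower among the 9, where 19.3% of all tested genes were called (9.58% higher, 9.71% lower). With siDNMT1 it had 6 higher and 1 lower, against 49.4% of all tested genes (24.8% and 24.6%). With decitabine it had 1 higher and 0 lower, against 4.57% (3.26% and 1.31%); that 1 is CLDN1. siDNMT1 against control siRNA alone had 0 higher and 1 lower, against 11.3% (6.94% and 4.4%), and decitabine 0 higher and 1 lower, against 18.2% (9.6% and 8.63%); both are CLDN7. Against control siRNA alone, siCHD4 + siDNMT1 had 6 higher and 2 lower, against 59.1% of all tested genes (29.3% and 29.8%). siCHD4 + decitabine had 1 higher and 2 lower, against 34.9% (18.0% and 16.9%). The comparisons with control siRNA alone share its 3 libraries and are not independent. The siCHD4 count fell to 0 to 2 when any 1 of its 6 libraries was left out. In the siDNMT1 background it fell to 3 or 4 without replicate 1 or 2 of the control or replicate 0 or 1 of siCHD4 + siDNMT1, and in the decitabine background to 0 without the shallow library or replicate 1 of siCHD4 + decitabine. The median log2 change of the 9 claudins with siCHD4 was 0.19 alone, 0.48 in the siDNMT1 background and -0.03 in the decitabine background; medians of all tested genes lay between -0.02 and 0.01.

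Libraries of the compared groups did not overlap for 3 of the 9 claudins with siCHD4 alone, where this held for 33.5% of all tested genes. In the siDNMT1 background it was 8 of 9 (70.1% of all tested genes) and in the decitabine background 1 of 9 (27.1%). Against control siRNA alone it was 5 of 9 with siDNMT1 (41.6%), 3 with decitabine (34.5%), 9 with siCHD4 + siDNMT1 (70.5%) and 6 with siCHD4 + decitabine (55.9%).

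A difference between backgrounds in the siCHD4 change was called for 1 of the 9 claudins, CLDN6. It was called higher in siDNMT1 against alone, where 4.12% of all tested genes were called (2.83% higher, 1.29% lower), and higher in siDNMT1 against decitabine, where 8.4% were (4.16% higher, 4.24% lower). In decitabine against alone it was called for 0 of the 9 (1.16% of all tested genes, 0.773% higher and 0.383% lower); 1 claudin, CLDN15, was lower at an unadjusted p under 0.05 in that limma fit (-0.62, limma adjusted p = 0.234). CLDN2, CLDN3, CLDN4, CLDN15 and CLDN23, called with siDNMT1 and not with decitabine, are therefore not shown to differ between these backgrounds; for CLDN4 the difference was 0.69 (limma adjusted p = 0.108).

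**Figure D3:**
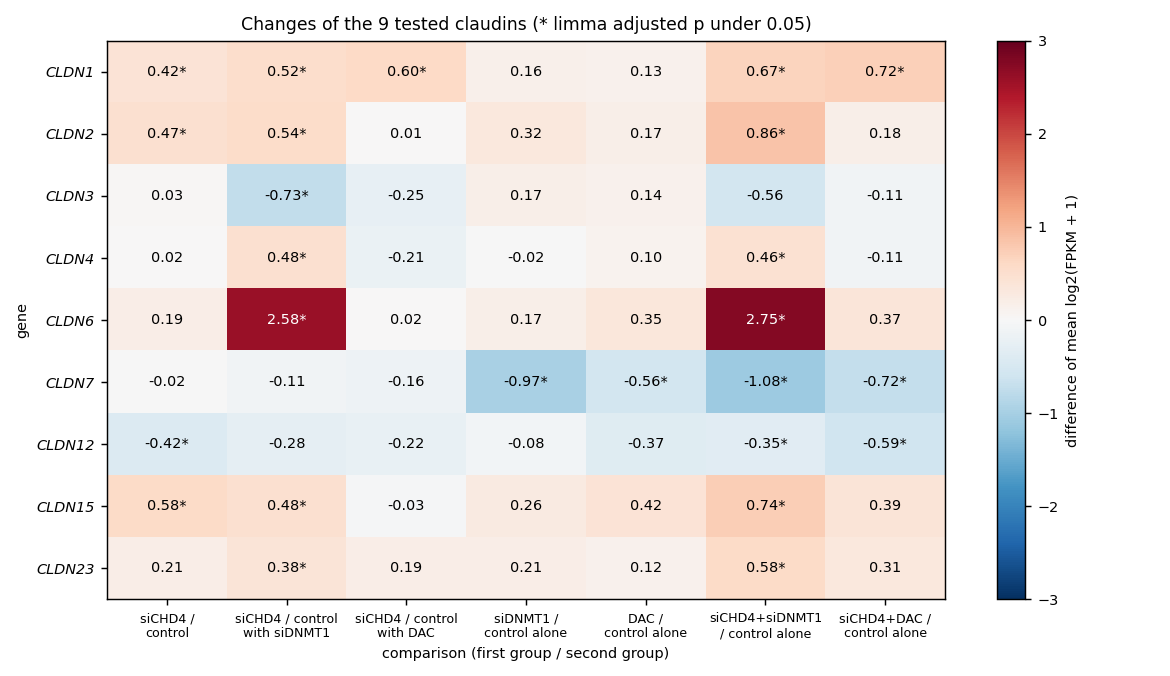
Log2 change (colour) of the 9 tested claudins (rows) in 7 comparisons (columns), from the limma fit on log2(FPKM + 1) with 3 libraries a group; an asterisk marks an adjusted p under 0.05. CLDN6 has its changes of 2.58 and 2.75 in the columns with both siRNAs, and CLDN7 is called lower in 4 of the columns.

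Of the 13 claudins outside the set that the table holds, CLDN19 also rose where both siRNAs had been given. CLDN19, known from kidney and retina, lies on chromosome 1 at 43198764 to 43205925 on the minus strand (GRCh37). It read 0.0932, 0.0854 and 0.246 FPKM in control siRNA + siDNMT1 and 1.56, 1.46 and 1.67 in siCHD4 + siDNMT1 (log2 change 1.17, limma adjusted p = 2.34e-07). It had passed the filter through these 3 libraries alone, since no other reached 1 FPKM; with no filter the change was 1.17 (limma adjusted p = 1.06e-08). With decitabine it read 0.168, 0.0913 and 0.0361 FPKM in the control and 0.540, 0.391 and 0.433 with siCHD4 (log2 change 0.41, limma adjusted p = 0.0184), a call whose sign turned after quantile normalization (-0.02, limma adjusted p = 0.912). In control siRNA it read 0.0978, 0 and 0.0406 FPKM and in siCHD4 0, 0.0546 and 0.0414. CLDN5, the claudin of blood vessels, reached 0.575 FPKM at most. CLDN8, CLDN17, CLDN24 and CLDN25 were listed at 0 in every library.

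**Figure D4:**
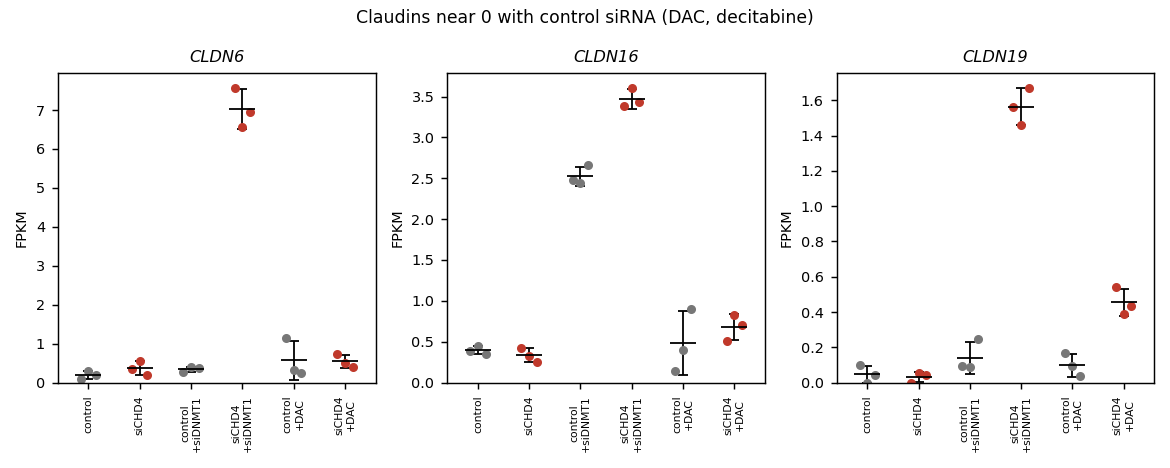
FPKM (vertical axis, own scale per panel) of CLDN6, CLDN16 and CLDN19 in each library (points) with group mean and SD of 3. CLDN6 and CLDN19 are highest in siCHD4 + siDNMT1 (6.57 to 7.57 and 1.46 to 1.67 FPKM), and CLDN16 is at 2.44 FPKM or more in both groups with siDNMT1 and at 0.906 or less elsewhere.

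Partners of the claudins at the junction were taken from a list of 36 tight junction genes, of which 28 were tested. With siCHD4 alone 4 rose and 0 fell, in the siDNMT1 background 13 rose and 2 fell, and in the decitabine background 2 rose and 0 fell. Of all tested genes 9.58%, 24.8% and 3.26% were called higher in these comparisons, and 9.71%, 24.6% and 1.31% lower. Medians of the 28 were 0.05, 0.32 and 0.26. LSR, the angulin that recruits tricellulin to corners between 3 cells, rose from a mean of 27.5 to 45.1 FPKM with siCHD4 alone (log2 change 0.69, limma adjusted p = 0.00456) and from 29.1 to 59.0 in the siDNMT1 background (1.00, limma adjusted p = 7.78e-05). TJP3, which encodes the scaffold ZO-3, rose from 0.745 to 3.09 FPKM (1.12, limma adjusted p = 0.00886) and from 1.02 to 3.73 (1.26, limma adjusted p = 0.00133). A fit on the compared groups alone ended the calls with siCHD4 alone, at adjusted p 0.0930 for LSR and 0.103 for TJP3. ARHGEF2, a junctional activator of RhoA, rose from 5.05 to 11.2 FPKM with siCHD4 in the siDNMT1 background (1.01, limma adjusted p = 1.44e-06). PARD6A, a polarity protein, fell there by 0.61 on the log2 scale (limma adjusted p = 0.000610).

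Against control siRNA alone, 2 of the 28 were higher and 6 lower with siDNMT1, where 6.94% and 4.4% of all tested genes were, and 1 was higher and 5 lower with decitabine, where 9.6% and 8.63% were. OCLN, which encodes occludin, fell from a mean of 13.8 FPKM to 9.49 with siDNMT1 (log2 change -0.49, limma adjusted p = 0.0103) and to 8.49 with decitabine (-0.66, limma adjusted p = 0.00104, or 0.0644 in a fit on the compared groups alone). PRKCZ, an atypical protein kinase C of the polarity complex, rose from 20.3 to 33.3 FPKM in both (0.68, limma adjusted p = 6.58e-05, and 0.69, limma adjusted p = 6.62e-05). PARD3, its scaffold, fell with decitabine by 0.45 on the log2 scale (limma adjusted p = 0.000383).

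Of 21 genes of adherens junctions and desmosomes 18 were tested. With siCHD4 alone 5 rose and 0 fell, in the siDNMT1 background 13 rose and 0 fell, and in the decitabine background 2 rose and 0 fell, with medians of 0.20, 0.56 and 0.29. Of all tested genes 9.58%, 24.8% and 3.26% were called higher and 9.71%, 24.6% and 1.31% lower. PPL, the desmosomal linker periplakin, rose in each background, from 8.66 to 25.3 FPKM with siCHD4 alone (1.42, limma adjusted p = 1.46e-05), from 11.0 to 50.0 with siDNMT1 also given (2.09, limma adjusted p = 6.26e-08) and from 15.4 to 27.0 with decitabine (0.77, limma adjusted p = 0.00462). CDH1, E-cadherin, rose with siCHD4 in the siDNMT1 background from 54.9 to 108 FPKM (0.97, limma adjusted p = 0.000667). DSP, desmoplakin, rose there from 71.3 to 137 FPKM (0.93, limma adjusted p = 0.000573), and CDH3, P-cadherin, from 28.3 to 49.3 (0.78, limma adjusted p = 2.10e-05).

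**Figure D5:**
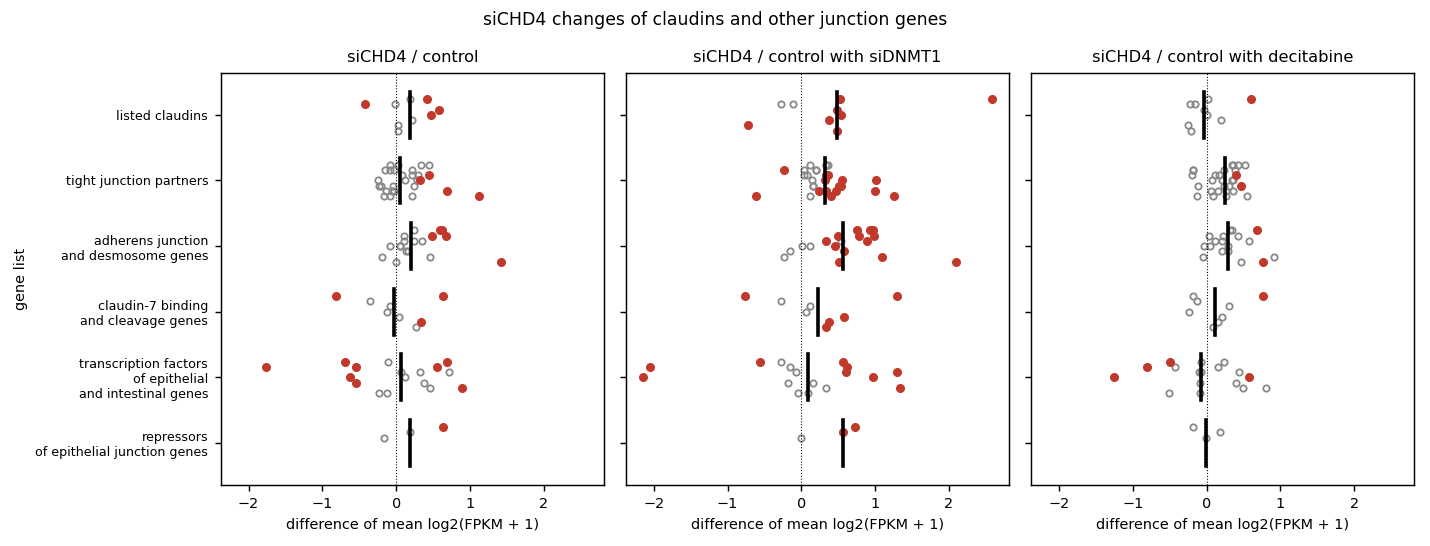
Log2 change (horizontal axis) of each tested gene of the junction lists, the claudins and the regulators in the 3 siCHD4 comparisons, 3 libraries a group; filled points passed an adjusted p under 0.05 and the bar is the list's median. In the siDNMT1 background 13 of 28 tight junction partners and 13 of 18 adherens junction and desmosome genes are called higher, as are 24.8% of all tested genes.

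CLDN7 binds EPCAM, CD44 and tetraspanins at the cell surface, and 8 of 9 such binding or cleaving genes were tested. CD44 rose with siCHD4 in all 3 backgrounds, by 0.63 alone (limma adjusted p = 0.00597), from 16.7 to 42.2 FPKM with siDNMT1 (1.29, limma adjusted p = 5.57e-06) and by 0.77 with decitabine (limma adjusted p = 0.00361); the first and last were lost in a fit on the compared groups alone (adjusted p 0.0755 and 0.0622). EPCAM was lower with decitabine than in control siRNA alone, at 182 against 258 FPKM (-0.53, limma adjusted p = 0.0234); without the shallow library this was -0.31 (limma adjusted p = 0.0666). TSPAN8, a tetraspanin, fell with siCHD4 by 0.81 alone (limma adjusted p = 0.0493) and by 0.77 with siDNMT1 (limma adjusted p = 0.0290). Of 13 other settings, the EPCAM call was lost in 5, that of TSPAN8 alone in 9 (adjusted p up to 0.265) and that of TSPAN8 with siDNMT1 in 5.

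Among 21 listed transcription factors of epithelial or intestinal genes, 17 were tested, and with siCHD4 alone 3 rose and 5 fell, where 9.58% and 9.71% of all tested genes did. In the siDNMT1 background 6 rose and 3 fell (24.8% and 24.6%), and in the decitabine background 1 rose and 3 fell (3.26% and 1.31%). EHF, an epithelial ETS factor, fell with siCHD4 alone from 111 to 32.4 FPKM (-1.76, limma adjusted p = 1.40e-06). CDX2, the intestinal homeobox factor, rose with siCHD4 alone from 37.9 to 62.1 (0.69, limma adjusted p = 0.00272, or 0.106 in a fit on the compared groups alone). ELF5, another epithelial ETS factor, was higher with siDNMT1 than in control siRNA alone, rising from 3.35 to 40.7 FPKM (3.28, limma adjusted p = 3.61e-09). OVOL2, a repressor of ZEB1, fell with siCHD4 alone (-0.70, limma adjusted p = 0.000421). HNF4A, an intestinal and liver nuclear receptor, rose with siCHD4 in the siDNMT1 background from 7.55 to 15.7 FPKM (0.97, limma adjusted p = 3.00e-05). GRHL2, which activates claudin genes in other epithelia, was called in no comparison. Of 9 repressors of epithelial junction genes 3 were tested. With siCHD4, 1 was higher alone (9.58% of all tested genes), 2 in the siDNMT1 background (24.8%) and 0 in the decitabine background (3.26%). In each of these 0 were lower, where 9.71%, 24.6% and 1.31% of all tested genes were. Decitabine against control siRNA alone had 1 higher (9.6%). SNAI1 rose from 2.14 to 3.85 FPKM with siCHD4 alone (0.63, limma adjusted p = 0.00978, or 0.0535 in a fit on the compared groups alone). It rose from 2.48 to 4.76 in the siDNMT1 background (0.72, limma adjusted p = 0.00132), while ZEB1, ZEB2 and SNAI2 stayed under the level of the test.

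Markers of other cell types also differed between groups, and their part in the claudin values was not tested. The summed FPKM of 14 colon epithelium markers lay at 2020 to 2140 in control siRNA and 1060 to 1100 in siCHD4 + siDNMT1. It was also lower in siCHD4, at 1200 to 1370, and in siCHD4 + decitabine, at 1450 to 1510. Gene by gene, of the 11 tested, 7 were higher and 3 lower in siCHD4 + siDNMT1 than in control siRNA alone, with a median log2 change of 0.65. Of all tested genes 29.3% were called higher and 29.8% lower in this comparison. In siCHD4 against control siRNA 5 of the 11 were higher and 3 lower (median 0.55), where 9.58% and 9.71% of all tested genes were. In siCHD4 + decitabine against control siRNA alone 4 were higher and 2 lower (median 0.33), where 18.0% and 16.9% were. 9 fibroblast markers, of which 4 reached 1 FPKM in at least 1 library, summed to 0.121 to 0.490 FPKM in control siRNA. They summed to 3.99 to 4.11 in control siRNA + siDNMT1, 6.79 to 7.7 in siCHD4 + decitabine and 14.2 to 16.0 in siCHD4 + siDNMT1. LUM, a matrix proteoglycan, gave up to 11.8 of this and COL3A1 was listed at 0. 9 blood markers summed to 0.0487 to 0.474 FPKM in control siRNA and 5.23 to 8.20 in siCHD4 + siDNMT1, with HBB at 0. In control siRNA + decitabine these blood markers summed to 1.85 to 5.99 FPKM. Of 11 germ and embryonic stem cell markers, the setting in which CLDN6 is best known, 3 reached 1 FPKM in at least 1 library. The 11 summed to 1.33 to 2.49 FPKM in control siRNA, 3.82 to 6.34 in siCHD4 + siDNMT1 and 4.35 to 4.74 in siCHD4 + decitabine. Endothelial markers summed to 0.268 to 1.85 FPKM over the 18 libraries, and neural and glial markers to 11.9 to 17.4, nearly all of it MBP. Of the stomach markers, with which CLDN18 belongs, MUC5AC was not analysed here, GKN1 and TFF1 were listed at 0, and the others summed to at most 2.47 FPKM.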

How the data were processed

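RNA of 18 SW48 libraries was sequenced from ribosomal RNA-depleted, stranded libraries, per the labels' protocols; RNA came from either Trizol or RNeasy, and which library had which is not stated. The authors deposited 1 table of FPKM values, made with TopHat2 2.0.9 and Cuffdiff 2.1.1 on hg19, per the submitters' processing notes; for the annotation, filters, scaling and use of strand no source used here gives a statement. 28 of 23599 rows (0.119%) with symbols turned into dates were left out. Depth per library is not stated; it was compared through the smallest steps of low values. The 23571 named genes were filtered at 1 FPKM in at least 3 libraries, log2(FPKM + 1) values were fitted with limma 3.58.1 in R 4.3.3 (6 group means, trended prior), and p-values were adjusted over 12809 genes. Single differences used exact permutation tests (SciPy 1.17.1). The claudins and gene lists were chosen with earlier results of these data known. Named genes are all listed claudins, CHD4, up to 4 called genes per list with the smallest p, and genes fixed by name. Promoters come from RefSeq (9 of 10 claudins matched) and positions on GRCh37 from GENCODE; protein sequences were not analysed here. Scripts were tested on simulated data. Alternatives were pseudocount 0.1, no filter, median ratio rescaling, quantile normalization, a replicate block, library weights, fits on compared groups and leaving out libraries. Replicate numbers did not pair the libraries.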

Additional observations from a re-analysis of the deposited data

Results flagged for a closer look

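The change of CLDN6 with siCHD4 differed between backgrounds in a direct test. It was larger with siDNMT1 than with siCHD4 alone by 2.39 on the log2 scale (limma adjusted p = 2.52e-05) and larger than with decitabine by 2.56 (limma adjusted p = 9.16e-05), with 3 of 3 siCHD4 + siDNMT1 libraries above every other library. CLDN19 differed in the same way, by 1.19 against siCHD4 alone (limma adjusted p = 4.19e-05) and by 0.76 against decitabine (limma adjusted p = 0.00471). CLDN19 reached 1 FPKM in those 3 libraries alone; with no filter both differences kept their size (limma adjusted p = 1.20e-06 and 0.000246). With a pseudocount of 0.1 the difference from decitabine was 1.31 and did not pass (limma adjusted p = 0.143). Schedules differed between the backgrounds, so agent and schedule cannot be told apart. CHD4 also fell by different amounts, with a log2 change of -1.24 with siDNMT1 (28.4 FPKM left) and -0.46, not called, with decitabine (54.9 FPKM left); the part of this in the differences was not tested.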

How the results depend on the processing

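Of 79 log2 changes followed, 553 values under the alternatives that keep every library gave 495 with the same call, 41 that lost it, 6 that gained it and 11 that changed sign. Leaving out 1 library gave 452 of 528 with the same call, 64 that lost it, 1 that gained it and 11 that changed sign. 1 called change was among those that changed sign, CLDN19 with siCHD4 and decitabine after quantile normalization (-0.02). The others had no call. After quantile normalization, CLDN6 with siCHD4 was -0.03 alone and -0.29 with decitabine, and CLDN7 with siCHD4 was 0.05 alone and 0.02 with siDNMT1. With library weights, CLDN7 with siCHD4 was 0.02 both alone and with decitabine, CLDN4 with siCHD4 and decitabine was 0.09, and the CLDN1 differences were -0.09 (siDNMT1 minus alone), -0.1 (decitabine minus alone) and 0.02 (siDNMT1 minus decitabine). Leaving out 1 library gave, for CLDN6 with siCHD4 and decitabine, -0.13 to 0.27; for CLDN7 with siCHD4, -0.2 to 0.17 alone and -0.25 to 0.01 with decitabine; for CLDN4 with siCHD4 and decitabine, -0.38 to 0.08; and for the CLDN1 differences, -0.08 to 0.2, -0.0 to 0.28 and -0.17 to 0.05 in the same order. The CLDN6 calls, and those of CLDN7 with siDNMT1, passed in every setting. The number of claudins called with siCHD4 alone was 4, and it was 1 with no filter, 1 after quantile normalization, 2 with a replicate block and 0 in a fit on the compared groups only. In that last fit it was 0 for siCHD4 with decitabine and 0 for decitabine against control (1 each in the report), and 6 for siCHD4 plus decitabine against control siRNA alone (3 in the report). With library weights the counts were 4 for siCHD4 with decitabine, 3 for siDNMT1, 4 for decitabine, 7 for siCHD4 plus decitabine against control siRNA alone, and for the differences between siCHD4 changes 3 (siDNMT1 minus alone), 1 (decitabine minus alone) and 4 (siDNMT1 minus decitabine). Leaving out 1 library gave 0 to 2 for siCHD4 alone, 3 to 5 with siDNMT1, 0 to 1 with decitabine, 0 to 1 for decitabine against control and 6 to 8 for siCHD4 plus siDNMT1 against control siRNA alone. Without replicate 1 of control siRNA + decitabine, the 1 claudin called for decitabine against control was higher, and the lower call of CLDN7 was lost. The other comparisons kept their counts when 1 library was left out. In the siDNMT1 background the siCHD4 count of 7 was 6 with a pseudocount of 0.1 and 5 with no filter. It was also 5 after quantile normalization, with 3 higher and 2 lower, and 8 with library weights or a fit on the compared groups only. For siCHD4 plus siDNMT1 against control siRNA alone the count of 8 was 7 or 9 in these settings. Over all tested genes the count for siCHD4 alone was 2471, against 514 in the fit on the compared groups and 5904 with weights. In the siDNMT1 background the all-gene count was 6323, against 8264 and 9182, and in the decitabine background 586, against 147 and 3707. With siCHD4 and siDNMT1 3175 of the 6323 were higher, and 2905 of 6331 after quantile normalization. With weights the all-gene counts rose as well for siDNMT1 (1452 to 4357), decitabine (2335 to 5621), siCHD4 plus decitabine against control siRNA alone (4467 to 7607) and the 3 differences (528 to 6144, 148 to 2413 and 1076 to 5626). With siCHD4 and decitabine 418 of the 586 were higher, and 335 of 592 after quantile normalization. Same-numbered libraries did not deviate together (45 pairs, r from -0.31 to 0.126; 2 of 18 libraries correlated best with their own number), so the replicate block describes a shared number. It changed the count with siCHD4 alone from 4 to 2. Depth limits CLDN18 and the CLDN6 values outside siCHD4 + siDNMT1. The causes of lost calls were not tested.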
